A study of Homo sapiens with 6 samples.

Results

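The collagen genes of TFK1 cells were compared between negative control cells and cells overexpressing STUB1. A collagen gene was any gene whose symbol consists of COL, a number, A and a number, and 41 of the 23569 genes in the deposited table met this rule. TFK1 is a human cholangiocarcinoma (CCA) line that comes from a carcinoma of the bile duct outside the liver. STUB1 is an E3 ubiquitin ligase that also binds chaperones. The RNA-seq libraries were made from stable TFK1 cells that carry a pHAGE lentivirus, either the negative control (oeNC, n = 3) or STUB1 for overexpression (oeSTUB1, n = 3), and both were selected with puromycin. The RNA-seq was made to look for tumor suppressor genes under the STUB1-UHRF1/DNMT1 axis, in which UHRF1 recruits DNMT1 to methylate DNA. As far as the sources used here say, each group is 1 stably selected population, so the overexpression of STUB1 and the population cannot be told apart. The libraries of a group carry only a replicate number. The paper says in general that its experiments were independent and repeated, but not that these libraries came from separate cultures. The p-values therefore measure the spread between these libraries, which may be technical.

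Collagens are secreted proteins in which chains with a repeated glycine pattern wind around each other into a rope-like helix. Fibrillar collagens form the cross-striated fibrils of connective tissue. Type IV collagens form the sheet-like network of basement membranes, on which bile duct epithelium sits. FACIT collagens attach to the surface of fibrils, transmembrane collagens span the plasma membrane of the cell that makes them, and multiplexins such as COL18A1 lie in basement membranes. Each chain has its own gene, and a helix can be built only from certain combinations of chains, so the levels of partner genes are given side by side below. In connective tissue most fibrillar collagen is made by fibroblasts, whereas epithelial cells make mainly basement membrane chains.

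Values are FPKM, fragments scaled to gene length and to the total of the library. Comparisons between genes, partner ratios and class sums depend on the length given to each gene. The recovered length was 15595 bases for COL4A1 and 6446 for COL4A2. A ratio of the group means for 1 gene does not depend on it. For low genes the test and its log2 fold change do, because 0.1 FPKM was both the level required and the constant added before taking logs. Library totals lay between 33106564 and 36744521 fragments. STUB1 itself was at 32.3 ± 1.23 FPKM (SD, n = 3) in the control and at 66.1 ± 7.70 FPKM (SD, n = 3) in oeSTUB1, a log2 fold change of 1.03 (SE 0.097, limma adjusted p = 0.00064). Of the bile duct and epithelial markers, KRT7, KRT8 and KRT18 were at 482 FPKM or more in every library, and KRT19 lay between 0.374 and 0.529 FPKM in oeNC and between 2.51 and 3.41 FPKM in oeSTUB1. Of 10 epithelial markers, 9 were listed, 2 rose and 4 fell (66.7% called, against 13.6% of all genes tested), and their summed level was 7421 to 7997 FPKM in oeNC and 4726 to 6266 FPKM in oeSTUB1. EPCAM, CDH1, KRT18 and KRT8 fell, with log2 fold changes of -1.13, -1.09, -0.68 and -0.57 (limma adjusted p = 0.0104, 0.00545, 0.0244 and 0.0372). KRT19 and MUC1 rose, with log2 fold changes of 2.47 and 0.75 (limma adjusted p = 0.000176 and 0.00778). The fibroblast markers FAP, DPT and C7 were not listed, DCN and SFRP2 had at most 3 fragments in every library, and the 7 listed of 10 summed to 0.298 to 0.406 FPKM in oeNC and 0.191 to 0.342 FPKM in oeSTUB1. LUM, the only one tested, was at 0.143 to 0.313 FPKM in oeNC against 0.0219 to 0.124 FPKM in oeSTUB1 (limma adjusted p = 0.0826). THY1 went the other way, with 4, 1 and 2 fragments in oeNC and 8, 19 and 14 in oeSTUB1. The groups overlapped for PDGFRA, PDGFRB and TCF21. Of the endothelial markers VWF, KDR, TEK, CLDN5, ERG and EMCN had at most 3 fragments in every library, TIE1 was not listed, and the list summed to 8.83 to 9.13 FPKM in oeNC and 7.19 to 11.2 FPKM in oeSTUB1, nearly all of it EGFL7. The 10 leukocyte markers summed to 32.5 to 35.5 FPKM in oeNC and 27.1 to 27.3 FPKM in oeSTUB1. CD68, a lysosomal protein that epithelial cells also make, fell (log2 fold change -0.50, limma adjusted p = 0.00303). It was the only one called of 6 tested (16.7%, near the 13.6% of all genes tested). The other tested members, LAPTM5, PTPRC, TYROBP, NKG7 and CD14, had log2 fold changes of 0.90, 0.58, 0.48, 0.10 and 0.06 and were not called. In RNA from a whole culture, fewer cells of a kind and less RNA per cell cannot be told apart.

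The second oeSTUB1 library stood apart from the others by gene length. Against the other libraries of its group its median deviation was 0.33 (log2) in the shortest of 4 equal length classes of genes and -0.34 in the longest class, and 16 of the 23 collagens tested lie in that longest class, whose recovered lengths were 6124 to 44221 bases. Without this library 9 collagens rose and 4 fell, against 8 and 4 with it. The third oeNC library was the lowest of its group for 16 of the 23 collagens, with a median deviation of -0.20 (log2). Its part in the results was not tested beyond leaving it out, which left 7 collagens higher and 3 lower.

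Of the 41 collagens, 23 had a mean of at least 0.1 FPKM over the 6 libraries and were tested by limma together with all other genes above that level. With an adjusted p under 0.05 over 15353 genes, 8 collagens rose, 4 fell and 11 were not called. The 12 called make up 52.2% of those tested, against 13.6% of all genes tested (7.01% higher and 6.59% lower). With an absolute log2 fold change over 1 as well, 6 rose and 2 fell, and 5.2% of all genes tested passed that rule. The lowest and highest libraries of the groups did not overlap for 17 of 23 collagens, and for 38.8% of all genes. The median log2 fold change was 0.51 over the 23 collagens and 0.02 over all genes tested. The genes that rose were COL5A1, COL4A6, COL21A1, COL4A5, COL16A1, COL18A1, COL5A2 and COL4A2, and those that fell were COL4A4, COL5A3, COL4A3 and COL6A2. COL21A1 and COL5A3 reached the level tested only through the group where they were higher, so their calls are not independent of that filter.

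**Figure D1:**
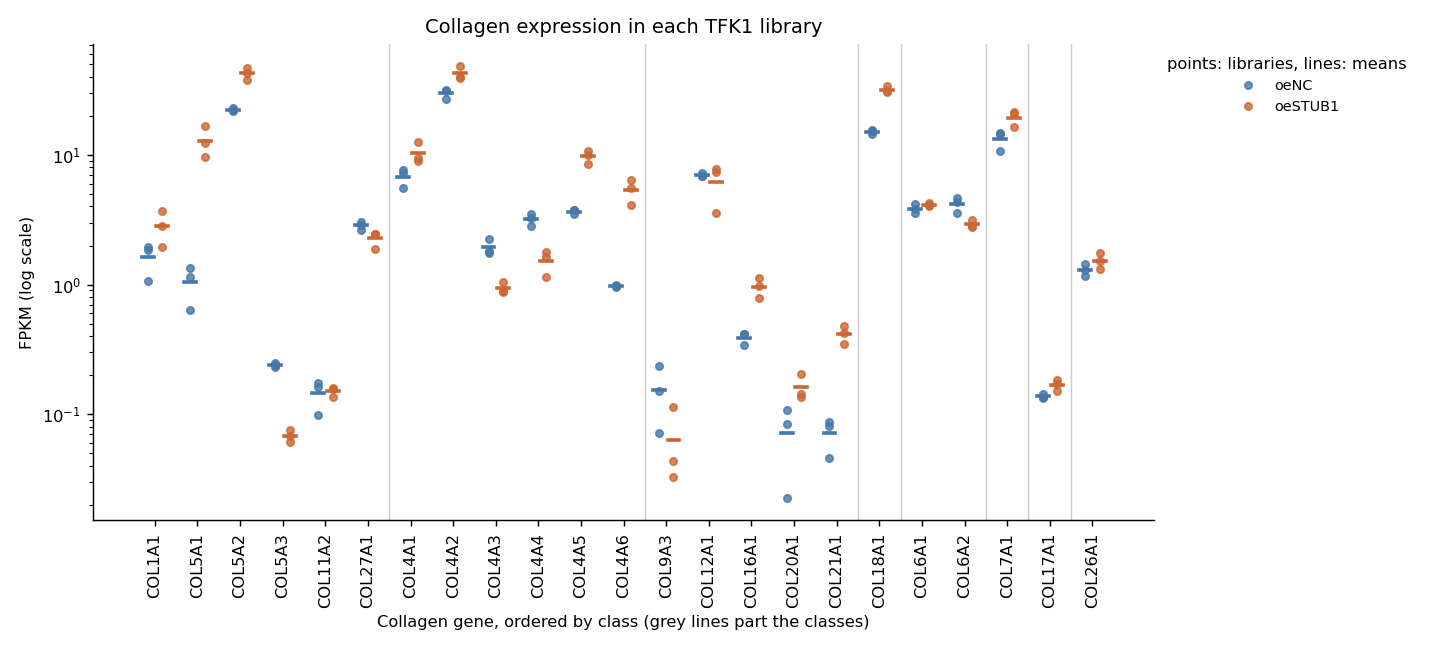
Level of each of the 23 tested collagen genes in each of the 6 libraries (FPKM, log axis), with oeNC in blue and oeSTUB1 in orange, points for libraries and short lines for group means. Genes are ordered by class, and the groups lie farthest apart for COL5A1, at 0.634 to 1.34 FPKM in oeNC and 9.67 to 16.6 FPKM in oeSTUB1.

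Summed over the 41 genes, collagens were at 121 ± 9.49 FPKM in oeNC against 199 ± 16.6 FPKM in oeSTUB1 (SD, n = 3 each), a ratio of 1.65. As a share of all fragments in the library they took 0.0867% to 0.101% in oeNC and 0.146% to 0.176% in oeSTUB1. Type IV collagens were the largest class in both groups, with 46.4 ± 4.16 FPKM in oeNC against 70.6 ± 8.33 FPKM in oeSTUB1. Fibrillar collagens came next, with 28.4 ± 1.63 FPKM in oeNC and 60.9 ± 7.19 FPKM in oeSTUB1, and their share of the collagen sum went from between 22.7% and 24.4% to between 29.5% and 31.7%. For FACIT genes the sum was 7.76 ± 0.241 FPKM in oeNC against 7.85 ± 2.19 FPKM in oeSTUB1, and the type VI sum was 8.06 ± 0.805 and 7.08 ± 0.234 FPKM. These sums were not tested. The higher total was thus made up of the fibrillar, type IV and multiplexin classes and COL7A1, and the FACIT sums of the groups overlapped.

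**Figure D2:**
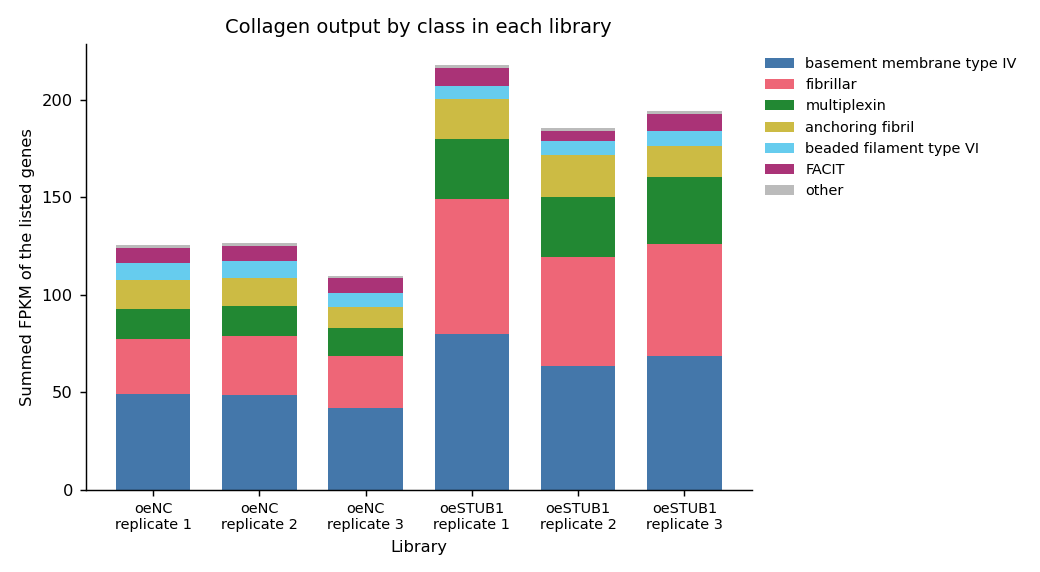
Summed FPKM of the listed collagen genes in each library, stacked by class, with the 3 oeNC libraries on the left and the 3 oeSTUB1 libraries on the right. Every oeSTUB1 bar, at 186 to 218 FPKM, stands above every oeNC bar, at 110 to 127 FPKM, and the type IV and fibrillar layers are the tallest in all 6.

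Among the fibrillar collagens the type V chains changed most. COL5A1 and COL5A2 encode the partner chains of type V collagen, a minor fibrillar collagen that sits inside fibrils and limits their width, and COL5A3 encodes a less common type V chain. COL5A1 was at 1.15, 1.34 and 0.634 FPKM in oeNC and at 16.6, 12.4 and 9.67 FPKM in oeSTUB1. It was the largest change among the 23 collagens tested, 12.4-fold between the group means, with a log2 fold change of 3.53 (SE 0.28, adjusted p = 0.000314). These levels rested on 427, 497 and 250 fragments in oeNC and 6150, 4389 and 3545 in oeSTUB1, and leaving out 1 library at a time gave log2 fold changes between 3.24 and 3.73. COL5A2 was already among the most abundant collagens in oeNC, at 22.3, 23.2 and 21.7 FPKM, and was at 46.9, 37.8 and 43.0 FPKM in oeSTUB1, 1.90-fold higher (log2 fold change 0.92, SE 0.094, adjusted p = 0.000878). In both genes every oeSTUB1 library lay above every oeNC library.

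The type V partners therefore moved closer in level. The FPKM ratio of COL5A2 to COL5A1 was 19.5, 17.3 and 34.2 in oeNC against 2.82, 3.06 and 4.45 in oeSTUB1. COL5A3 went the other way, from 0.240, 0.231 and 0.249 FPKM in oeNC to 0.0605, 0.0678 and 0.0751 FPKM in oeSTUB1, a log2 fold change of -1.02 on the scale of FPKM + 0.1 (SE 0.21, adjusted p = 0.0182). It was scarce throughout, with 50 to 57 fragments in oeNC and 13 to 16 in oeSTUB1, and the size of its change followed the constant added before taking logs, from -0.22 with a constant of 1 to -1.69 with a constant of 0.01. In limma-voom, which uses another model, it was -1.79. Its adjusted p was 0.0517 to 0.0784 without the first, second or the third oeNC library or the first oeSTUB1 library. COL5A3 reached the level tested only through oeNC, since its oeSTUB1 mean was 0.0678 FPKM.

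The 250 bases before the COL5A1 start are shown because this gene had the largest change of the 23 and because DNMT1 methylates CpG sites, which are in capitals. They lie at chr9:134641555-134641804 of GRCh38.p14 on the plus strand (RefSeq) and hold 29 CpG sites.

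COL5A1: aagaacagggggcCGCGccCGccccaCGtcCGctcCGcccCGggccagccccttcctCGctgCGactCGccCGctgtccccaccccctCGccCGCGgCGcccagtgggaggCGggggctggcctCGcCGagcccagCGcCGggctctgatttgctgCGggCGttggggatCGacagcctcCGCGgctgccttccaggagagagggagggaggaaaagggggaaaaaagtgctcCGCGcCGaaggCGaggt

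The other fibrillar collagens gave no call. COL1A1, which encodes the main chain of type I collagen, was at 1.85, 1.95 and 1.07 FPKM in oeNC and at 2.81, 3.68 and 1.93 FPKM in oeSTUB1, so the groups overlapped (log2 fold change 0.75, SE 0.28, adjusted p = 0.120), and without the third oeNC library the log2 fold change was 0.50. Its partner chain COL1A2 had at most 2 fragments in any library, as recovered from the FPKM steps. COL27A1, a cartilage-type fibrillar collagen, was at 2.66, 3.04 and 2.89 FPKM in oeNC and at 2.46, 1.87 and 2.47 FPKM in oeSTUB1 (log2 fold change -0.33, SE 0.14, adjusted p = 0.155). COL11A2 was at 0.0982 to 0.174 FPKM in oeNC against 0.135 to 0.158 FPKM in oeSTUB1.

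COL11A1, a type XI chain that can assemble with type V chains, had 5, 7 and 5 fragments in oeNC and 2, 3 and 1 in oeSTUB1. It lay under the level needed for the test, as did COL3A1, the type III chain, with 5, 8 and 2 fragments in oeNC and 12, 19 and 10 in oeSTUB1. With no filter on level neither passed (adjusted p = 0.232 and 0.137). Of the 11 fibrillar genes, 6 were tested, and 2 rose, 1 fell and 3 were not called (50% called, against 13.6% of all genes tested).

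**Figure D3:**
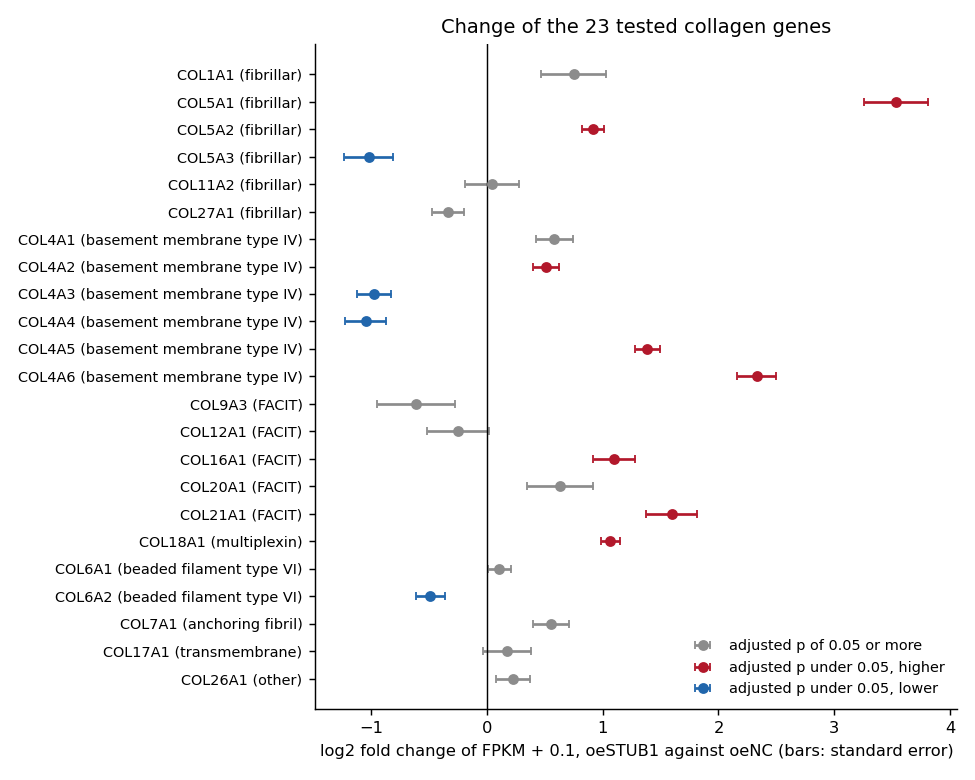
Log2 fold change of FPKM + 0.1 in oeSTUB1 against oeNC for the 23 tested collagens, by class, with the standard error as bars and the color giving the call at an adjusted p under 0.05. COL5A1 stands at 3.53, and the calls to the left of zero are COL4A4, COL5A3, COL4A3 and COL6A2.

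All 6 type IV genes were tested, and 3 rose, 2 fell and 1 was not called (83.3% called, against 13.6% of all genes tested). They lie in the genome as head-to-head pairs on opposite strands, with the starts of a pair close together, and the partners of a pair share the stretch of DNA between them. COL4A1 and COL4A2, on chromosome 13, encode the chains found in all basement membranes. COL4A3 and COL4A4, on chromosome 2, join COL4A5 in the network of the kidney glomerulus and some other basement membranes. COL4A5 and COL4A6, on the X chromosome, encode chains that join each other in other epithelial basement membranes. In the RefSeq table of GRCh38.p14 the starts are parted by 126 bases for COL4A1 and COL4A2, 418 for COL4A4 and COL4A3, and 379 for COL4A6 and COL4A5.

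The sequences between the starts are shown, again with CpG sites in capitals, because the partners of each pair had log2 fold changes of the same sign. The whole stretch between COL4A1 and COL4A2 is chr13:110307158-110307283, written on the plus strand, from which COL4A2 is read. For the wider pairs the 250 bases before each start are given in the direction of the gene, and the windows of a pair overlap. They are chr2:227164374-227164623 on the plus strand for COL4A3, chr2:227164206-227164455 on the minus strand for COL4A4, chrX:108439588-108439837 on the plus strand for COL4A5 and chrX:108439459-108439708 on the minus strand for COL4A6, for which RefSeq also lists another start.

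COL4A1 and COL4A2: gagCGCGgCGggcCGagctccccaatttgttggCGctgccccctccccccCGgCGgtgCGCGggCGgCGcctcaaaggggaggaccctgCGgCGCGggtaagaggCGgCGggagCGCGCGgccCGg
COL4A3: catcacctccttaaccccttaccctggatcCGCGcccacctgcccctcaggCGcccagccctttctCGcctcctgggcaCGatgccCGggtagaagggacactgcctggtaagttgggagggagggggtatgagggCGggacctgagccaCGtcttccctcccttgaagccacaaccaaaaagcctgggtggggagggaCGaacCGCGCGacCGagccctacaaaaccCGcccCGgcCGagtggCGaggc
COL4A4: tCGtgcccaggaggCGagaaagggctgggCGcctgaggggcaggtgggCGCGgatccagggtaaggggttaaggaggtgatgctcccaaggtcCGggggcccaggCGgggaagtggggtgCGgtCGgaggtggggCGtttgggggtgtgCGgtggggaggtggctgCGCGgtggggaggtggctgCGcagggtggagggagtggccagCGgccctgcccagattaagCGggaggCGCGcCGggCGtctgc
COL4A5: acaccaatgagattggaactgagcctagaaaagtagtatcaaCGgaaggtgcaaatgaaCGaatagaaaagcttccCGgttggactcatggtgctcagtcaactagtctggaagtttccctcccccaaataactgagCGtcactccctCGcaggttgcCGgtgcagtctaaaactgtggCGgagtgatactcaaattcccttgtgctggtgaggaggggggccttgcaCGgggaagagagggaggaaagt
COL4A6: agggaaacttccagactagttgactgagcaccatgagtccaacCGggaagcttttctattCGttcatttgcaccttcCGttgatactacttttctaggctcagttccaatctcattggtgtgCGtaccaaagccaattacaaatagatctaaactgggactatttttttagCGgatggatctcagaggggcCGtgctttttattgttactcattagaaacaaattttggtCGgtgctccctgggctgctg

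The pairs differ in CpG content. The stretch between COL4A1 and COL4A2 holds 20 CpG sites in 126 bases, the windows of COL4A3 and COL4A4 hold 17 and 20, and those of COL4A5 and COL4A6 hold 8 and 7. In windows of 300 bases, from 250 before each start to 50 after, COL4A1 and COL4A2 have 45 CpG each, a count that 3.48% of the 35116 windows in the RefSeq table reach, and the median of all windows is 14. No methylation was measured in these libraries.

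The X-linked pair rose most. COL4A6 was at 0.964, 0.989 and 0.969 FPKM in oeNC and at 5.59, 4.13 and 6.43 FPKM in oeSTUB1, 5.52-fold higher (log2 fold change 2.33, SE 0.17, adjusted p = 0.000198). The oeNC libraries lay close together (SD 0.0134 FPKM), and each oeSTUB1 library was far above them. COL4A5 was at 3.48, 3.75 and 3.75 FPKM in oeNC and at 9.94, 8.57 and 10.7 FPKM in oeSTUB1, 2.66-fold higher (log2 fold change 1.38, SE 0.11, adjusted p = 0.000281). The partners did not move by the same amount, since the FPKM ratio of COL4A5 to COL4A6 lay between 3.60 and 3.87 in oeNC and between 1.67 and 2.07 in oeSTUB1, without overlap. The median log2 fold change of all tested genes on the X chromosome was 0.06.

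The chromosome 2 pair fell. COL4A3 was at 1.81, 2.26 and 1.74 FPKM in oeNC and at 1.04, 0.870 and 0.887 FPKM in oeSTUB1, 2.08-fold lower (log2 fold change -0.97, SE 0.15, adjusted p = 0.00513, and -0.60 with a constant of 1 added before taking logs). COL4A4 was at 3.28, 3.47 and 2.80 FPKM in oeNC and at 1.77, 1.13 and 1.62 FPKM in oeSTUB1, 2.11-fold lower (log2 fold change -1.05, SE 0.18, adjusted p = 0.00786). In neither gene did the groups overlap. The partners kept their proportion, with a COL4A4 to COL4A3 ratio of 1.65 ± 0.142 in oeNC and 1.61 ± 0.272 in oeSTUB1 (SD, n = 3 each). The median of all tested genes on chromosome 2 was -0.21 (log2), and relative to it COL4A3 was at -0.76 and COL4A4 at -0.84, whereas COL5A2, on the same chromosome, was at 1.13. The part of that chromosome shift in the result was not tested.

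The RNA levels of COL4A5 and COL4A3, whose chains can share a network, thus moved apart. No protein or network was measured. The FPKM ratio of COL4A5 to COL4A3 ranged from 1.66 to 2.15 in oeNC and from 9.54 to 12.1 in oeSTUB1. These ratios are descriptions of the levels, and no test was run on them.

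The chromosome 13 pair was the most abundant of the class. COL4A2 was at 31.8, 31.0 and 26.8 FPKM in oeNC and at 48.9, 39.4 and 40.0 FPKM in oeSTUB1, 1.43-fold higher (log2 fold change 0.51, SE 0.11, adjusted p = 0.0224). COL4A1 was at 7.61, 7.24 and 5.58 FPKM in oeNC and at 12.5, 9.43 and 8.91 FPKM in oeSTUB1, a log2 fold change of 0.58 (SE 0.16) that missed the threshold (adjusted p = 0.0536). The groups did not overlap for either gene, and the FPKM ratio of COL4A2 to COL4A1 was 4.42 ± 0.332 in oeNC and 4.19 ± 0.291 in oeSTUB1 (SD, n = 3 each). The size of this ratio depends on the gene lengths, since the oeNC fragments summed to 20389 for COL4A2 and 11237 for COL4A1. The calls of this pair depended on single libraries. The adjusted p of COL4A2 was 0.0601, 0.0750 and 0.0904 without the first, second and the third oeNC library and 0.0532 without the first oeSTUB1 library, and that of COL4A1 was 0.0327 without the second oeSTUB1 library.

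**Figure D4:**
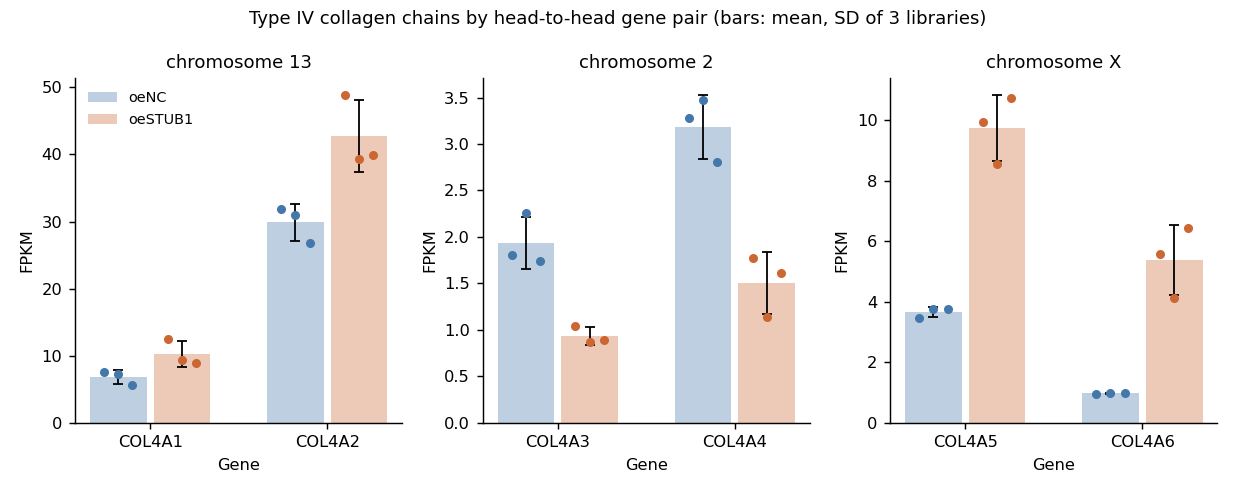
FPKM of the type IV genes in the chromosome 13, chromosome 2 and chromosome X pairs, with bars for the mean and SD of 3 libraries and points for the libraries (each panel has its own axis from 0). The chromosome 2 pair is lower in oeSTUB1, with COL4A4 falling from 2.80 to 3.47 FPKM down to 1.13 to 1.77 FPKM, and the X-linked pair is higher.

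COL18A1, a multiplexin of basement membranes whose C-terminal fragment is endostatin, rose. It was at 15.5, 15.4 and 14.6 FPKM in oeNC and at 30.9, 30.5 and 34.2 FPKM in oeSTUB1, 2.1-fold higher (log2 fold change 1.07, SE 0.079, adjusted p = 0.000226). The libraries of each group lay close together, and the log2 fold change was between 1.01 and 1.10 when each library in turn was left out. The other multiplexin, COL15A1, had 2 to 12 fragments and was not tested.

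Of the 8 FACIT genes listed, 5 were tested, and 2 rose while 0 fell (40% called by limma, against 7.01% of all genes higher and 6.59% lower). The count of lower genes was also 0 at an unadjusted p under 0.05 and 0 by limma-voom. With 5 genes tested, a count of 0 lower is near the share over all genes. COL16A1 was at 0.413, 0.339 and 0.417 FPKM in oeNC and at 0.780, 1.12 and 0.968 FPKM in oeSTUB1, 2.45-fold higher (log2 fold change 1.10, SE 0.18, adjusted p = 0.00715). COL21A1 was at 0.0805, 0.0460 and 0.0868 FPKM in oeNC and at 0.423, 0.349 and 0.479 FPKM in oeSTUB1 (log2 fold change 1.60, SE 0.22, adjusted p = 0.00341). Both were scarce, and COL21A1 rested on 14, 8 and 16 fragments in oeNC and 73, 58 and 82 in oeSTUB1. COL21A1 reached the level tested only through oeSTUB1, since its oeNC mean was 0.0711 FPKM. Because of these low levels the constant added before taking logs set the size of the change, and with constants of 1 and 0.01 the log2 fold changes were 0.49 and 1.26 for COL16A1 and 0.40 and 2.42 for COL21A1. The group means of COL21A1 differed 5.86-fold, and limma-voom gave a log2 fold change of 2.54.

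COL12A1, which binds type I collagen fibrils, was the most abundant FACIT gene and was not called. It was at 6.91, 7.25 and 6.90 FPKM in oeNC and at 7.75, 3.56 and 7.38 FPKM in oeSTUB1 (log2 fold change -0.25, SE 0.27, adjusted p = 0.575). The low value came from the second oeSTUB1 library, which stood apart for long genes, and without that library the log2 fold change was 0.11. COL20A1 was at 0.0223 to 0.108 FPKM in oeNC against 0.134 to 0.204 FPKM in oeSTUB1 (adjusted p = 0.188), and COL9A3 was at 0.0709 to 0.236 and 0.0324 to 0.112 FPKM (adjusted p = 0.271).

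Type VI collagen forms beaded filaments from COL6A1, COL6A2 and a further chain, most often that of COL6A3. COL6A2 was at 4.36, 4.63 and 3.55 FPKM in oeNC and at 2.80, 2.84 and 3.16 FPKM in oeSTUB1, 1.42-fold lower (log2 fold change -0.49, SE 0.13, adjusted p = 0.0401). COL6A1, its neighbor on chromosome 21, was at 4.17, 3.84 and 3.54 FPKM in oeNC and at 4.04, 4.25 and 4.13 FPKM in oeSTUB1 (log2 fold change 0.11, SE 0.10, adjusted p = 0.523). The FPKM ratio of COL6A1 to COL6A2 was 0.956, 0.829 and 0.995 in oeNC and 1.44, 1.49 and 1.31 in oeSTUB1. COL6A3 had 13, 9 and 18 fragments in oeNC and 2, 1 and 7 in oeSTUB1, below the level tested (adjusted p = 0.122 with no filter). The call of COL6A2 was the least stable of the 12, and leaving out single libraries gave an adjusted p between 0.0318 and 0.172, with the call lost without the first or second oeNC library or the first or the third oeSTUB1 library.

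COL7A1, which forms the anchoring fibrils that tie epithelial basement membranes to the tissue beneath, was at 14.7, 14.5 and 10.6 FPKM in oeNC and at 20.5, 21.5 and 16.3 FPKM in oeSTUB1. The groups did not overlap, but the change missed the threshold (log2 fold change 0.55, SE 0.16, adjusted p = 0.0552), and without the third oeSTUB1 library its adjusted p was 0.0405. Of the 4 transmembrane collagens, COL17A1, a hemidesmosome protein of epithelial cells, was the only one tested, at 0.144, 0.134 and 0.136 FPKM in oeNC and at 0.150, 0.183 and 0.172 FPKM in oeSTUB1 (log2 fold change 0.17, SE 0.21, adjusted p = 0.622). COL13A1 had 1 to 6 fragments, and COL23A1 and COL25A1 had at most 2. COL26A1 was at 1.43, 1.28 and 1.16 FPKM in oeNC and at 1.32, 1.74 and 1.52 FPKM in oeSTUB1 (log2 fold change 0.22, SE 0.15, adjusted p = 0.358).

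The remaining collagens were at or near the limit of detection. Of the 18 collagens under the level tested, 8 had at most 3 fragments in every library, namely COL14A1, COL6A5, COL1A2, COL2A1, COL10A1, COL8A2, COL23A1 and COL25A1. The short chain network genes COL8A1, COL8A2 and COL10A1 were all among the 18. The highest count for any of the 18 was 19 fragments, in COL3A1, and COL6A3, COL11A1 and COL3A1 were those whose groups did not overlap. That is 3 of 18, against 38.8% of all genes tested, and the share among genes under the level tested was not counted. A fragment number recovered from FPKM is the smallest that the values allow.

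Promoter sequence was compared over the class as a description. Of the 41 collagens, 29 matched the RefSeq promoter table of GRCh38.p14, with 40 windows of 300 bases. Taking the window with the most CpG for each gene, the median was 22 CpG (7 to 46) over the 7 matched genes that rose, 26.5 (17 to 36) over the 4 that fell and 29 (1 to 45) over the 7 that were tested and not called. These ranges overlapped. Among all windows the quartiles were 4 and 28 CpG, and the Sp1-type box GGGCGG, searched on both strands, was in 45.0% of all windows.

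Genes that build collagen were counted next. Of 39 genes in lists for modification and folding, secretion, and processing and crosslinking, 38 were listed and 31 tested, and 6 rose and 3 fell, 29.0% called against 13.6% of all genes. In the modification and folding list 4 of 17 rose and 0 fell (23.5% called, against 7.01% of all genes higher and 6.59% lower, by limma). The count of lower genes was also 0 at an unadjusted p under 0.05 and 0 by limma-voom. With 17 genes tested, a count of 0 lower is near the share over all genes. P3H3, a prolyl 3-hydroxylase family member, was at 1.24, 1.01 and 0.817 FPKM in oeNC and at 3.98, 4.59 and 3.36 FPKM in oeSTUB1 (log2 fold change 1.87, SE 0.18, adjusted p = 0.000647). P4HA3, a catalytic subunit of prolyl 4-hydroxylase, was at 3.09, 3.02 and 2.26 FPKM in oeNC and at 8.82, 7.54 and 6.31 FPKM in oeSTUB1 (log2 fold change 1.41, SE 0.16, adjusted p = 0.00155). PLOD2, the lysyl hydroxylase of collagen telopeptides, was at 41.1, 41.6 and 39.4 FPKM in oeNC and at 82.3, 73.9 and 73.9 FPKM in oeSTUB1 (log2 fold change 0.91, SE 0.077, adjusted p = 0.000402). PLOD1 rose (log2 fold change 0.30, adjusted p = 0.0274), but its adjusted p was 0.0671 to 0.141 without any 1 library other than the second of oeSTUB1.

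None of the 6 secretion genes, among them MIA3, which loads large cargo such as procollagen, was called, against 13.6% of all genes (0 by limma, 0 at an unadjusted p under 0.05 and 0 by limma-voom). With 6 genes tested, a count of 0 is near that share. The log2 fold changes of the secretion genes lay between -0.19 and 0.01. In the processing and crosslinking list 2 of 8 tested rose and 3 fell, 62.5% called against 13.6% of all genes. LOXL2, a lysyl oxidase that crosslinks type IV collagen, was at 22.3, 21.5 and 18.7 FPKM in oeNC and at 34.3, 30.3 and 28.9 FPKM in oeSTUB1 (log2 fold change 0.58, SE 0.10, adjusted p = 0.00917). BMP1, the C-propeptide protease of fibrillar procollagens, rose (log2 fold change 0.40, adjusted p = 0.0212), but its adjusted p was 0.0600 to 0.0915 without any 1 library other than the second of oeSTUB1. The genes that fell were TLL1, a protease of the BMP1 family (log2 fold change -1.29, adjusted p = 0.0109), ADAMTS2, which removes N-propeptides (-1.10, adjusted p = 0.0140), and PCOLCE2, which enhances the C-propeptide protease (-0.83, adjusted p = 0.00117). TLL1 and ADAMTS2 were under 0.5 FPKM in every library, and with constants of 1 and 0.01 their log2 fold changes were -0.33 and -1.89 for TLL1 and -0.24 and -1.79 for ADAMTS2, whereas PCOLCE2 was at 10.6 to 11.4 FPKM in oeNC against 5.80 to 6.75 FPKM in oeSTUB1. The call was lost for TLL1 without the second or the third oeNC library (adjusted p = 0.0568 and 0.0542) and for ADAMTS2 without the first or second (0.0727 and 0.0635).

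Of 12 collagen receptor genes, 9 were tested, and 3 fell while 0 rose (33.3% called, against 6.59% of all genes lower and 7.01% higher, by limma; also 0 higher at an unadjusted p under 0.05 and 0 higher by limma-voom). With 9 genes tested, a count of 0 higher is near the share over all genes. ITGA1, the alpha chain of an integrin that prefers type IV collagen, was at 3.16, 3.27 and 2.54 FPKM in oeNC and at 1.15, 0.675 and 1.07 FPKM in oeSTUB1 (log2 fold change -1.56, SE 0.20, adjusted p = 0.00263, and -1.02 with a constant of 1). ADGRG6, an adhesion receptor that binds type IV collagen, had a log2 fold change of -0.91 (SE 0.19, adjusted p = 0.0192), and DDR1, the collagen-activated receptor tyrosine kinase of epithelial cells, -0.45 (SE 0.077, adjusted p = 0.00854). The call was lost for ADGRG6 without any 1 of the oeNC libraries (adjusted p = 0.0571 to 0.0823) and for DDR1 without the first or second (0.0589 and 0.0534). The shared beta chain ITGB1 was at 409 ± 7.53 FPKM in oeNC against 488 ± 60.1 FPKM in oeSTUB1 (adjusted p = 0.186). The alpha chain ITGA2 was at 8.79 ± 0.846 FPKM in oeNC against 5.68 ± 1.86 FPKM in oeSTUB1 (adjusted p = 0.105). Without the second oeSTUB1 library ITGB1 was higher (log2 fold change 0.35, adjusted p = 0.00164) and ITGA2 was lower (-0.37, adjusted p = 0.0209).

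**Figure D5:**
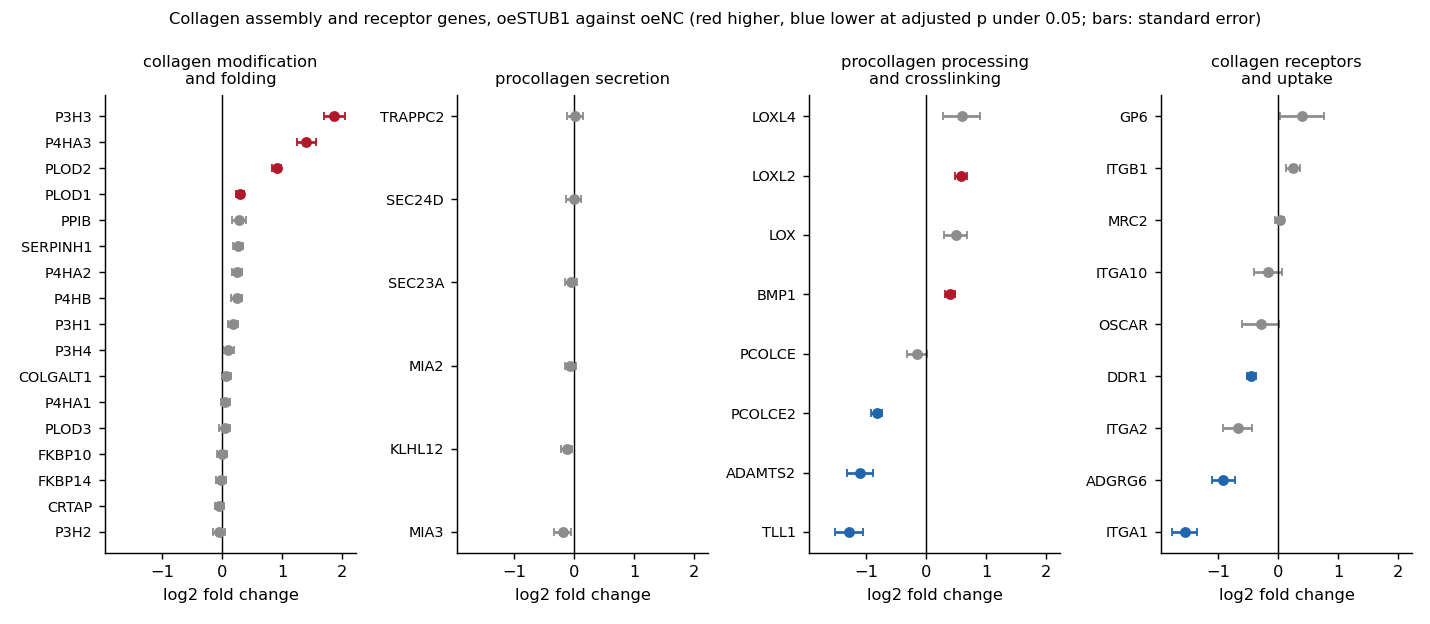
Log2 fold change of FPKM + 0.1 in oeSTUB1 against oeNC, with its standard error, for the tested genes of the collagen modification and folding, secretion, processing and crosslinking, and receptor lists, red for higher and blue for lower at an adjusted p under 0.05. P3H3, P4HA3 and PLOD2 lead the first list at 1.87, 1.41 and 0.91, and ITGA1 is lowest among the receptors at -1.56.

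Of the fibril partners, proteins that bind collagen fibrils, 3 of 10 listed were tested, and 1 was called (33.3%, against 13.6% of all genes tested). TNXB fell (log2 fold change -1.11, adjusted p = 0.0219, and -0.26 and -1.70 with constants of 1 and 0.01), with no gene higher (0 by limma, 0 at an unadjusted p under 0.05 and 0 by limma-voom). With 3 genes tested, a count of 0 higher is near the 7.01% over all genes. FN1, fibronectin, was at 139 ± 10.5 FPKM in oeNC against 91.8 ± 33.9 FPKM in oeSTUB1 (log2 fold change -0.67, SE 0.26, adjusted p = 0.134, and -0.33 with an adjusted p of 0.0327 without the second oeSTUB1 library). Of the 14 genes in the list of TGF-beta and SMAD factors, a pathway known for inducing collagen genes, 3 rose and 0 fell (21.4% called, against 7.01% of all genes higher and 6.59% lower, by limma; also 0 lower at an unadjusted p under 0.05 and 0 lower by limma-voom). With 14 genes tested, a count of 0 lower is near the share over all genes. The genes that rose included the ligand TGFB2, at 4.79 ± 0.231 FPKM in oeNC against 10.5 ± 1.75 FPKM in oeSTUB1 (log2 fold change 1.10, adjusted p = 0.00182), and CCN2, a matricellular protein, at 5.37 ± 1.19 against 8.82 ± 1.62 FPKM (log2 fold change 0.71, adjusted p = 0.0430). CCN2 lost its call without the first or second oeNC library or the first or second oeSTUB1 library (adjusted p = 0.0505 to 0.155), and TNXB without any 1 of the oeNC libraries or the first oeSTUB1 library (0.0542 to 0.0859).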

How the data were processed

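RNA-seq of TFK1 cells was analyzed in 6 libraries, 3 oeNC and 3 oeSTUB1, grouped by their labels. The authors deposited FPKM values for 23569 genes by symbol. The submitters' processing notes name fastp 0.20.1, HISAT2 2.1.0, HTSeq 0.11.2, R 3.2.0, DESeq2 1.22.2 and GRCh38.p13, without roles or order. The annotation and the strand setting of the counting are not given in the sources used here, so reads of overlapping antisense genes may be included. Fragments were recovered as whole multiples of each gene's FPKM step for 23569 genes, with recomputed FPKM within 4.9e-06 of the deposited values. Each gene was given the smallest possible length, so its fragments are the fewest the values allow and may be a fraction of the true number.

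The 15353 genes whose mean reached 0.1 FPKM entered limma 3.58.1 (lmFit, eBayes with trend, two-sided, R 4.3.3) as log2(FPKM + 0.1), with Benjamini-Hochberg adjustment over all of them and a call at an adjusted p under 0.05. Fold changes on this scale understate those of low genes. The floor was 3 fragments, not exceeded in any library of the group. Replicates differed by more than sampling noise (chi-square per degree of freedom 3.37 to 76.7). The test was checked on simulated data, where the share of unchanged genes among its calls came out above the nominal threshold.

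The collagens, classes and lists were chosen with earlier results of these data known. Collagens were named where called, at 1 FPKM or more in a group mean, or at the floor in 1 group and above it in every library of the other. COL11A2, COL17A1, COL20A1, COL9A3, COL3A1, COL6A3 and others under the tested level fall outside this rule and were named after their values were seen, as were EGFL7, MIA3, ITGB1, ITGA2, FN1 and some markers. COL6A6, COL9A1 and COL19A1 belong to the class lists but had no row in the deposited table, so they could not be analyzed. A further gene of the TGF-beta list is counted but not reported here. Chromosomes and promoter windows were taken from RefSeq tables of GRCh38.p14, and no coordinate was converted. Alternatives were other pseudocounts (1 and 0.01), filters, scalings and fold thresholds, eBayes without trend, a block for the replicate number, limma-voom on recovered fragments, omission of each library and, added after seeing the data, a correction for gene length.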

Additional observations from a re-analysis of the deposited data

How the results depend on the processing

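Of the 12 called collagens, 9 kept their call under every alternative fit that tested them, namely COL5A1, COL5A2, COL4A5, COL4A6, COL18A1, COL16A1 and COL21A1, all higher, and COL4A3 and COL4A4, both lower. COL4A2, COL5A3 and COL6A2 lost it under at least 1. Of the 9, 7 also passed an absolute log2 fold change over 1, and COL5A2 and COL4A3 did not. Against 8 collagens higher and 4 lower, the replicate number as a block gave 11 and 2, limma-voom on recovered fragments 10 and 4, the added length correction 9 and 4, and quantile normalization 7 and 3. The rule with an absolute log2 fold change over 1 gave 2 lower collagens, 2 higher assembly genes and 1 lower receptor. Leaving out 1 library at a time gave 7 to 9 collagens higher and 2 to 4 lower, 4 to 10 assembly genes higher and 1 to 4 lower, and 0 to 1 receptors higher and 1 to 4 lower, with the highest assembly count and the 1 higher receptor without the second oeSTUB1 library. The 2 lower collagens came without the first or second oeNC library or the first oeSTUB1 library, the 1 lower assembly gene without the second oeNC library, and the 1 lower receptor without the first or second oeNC library. A filter at a mean of 1 FPKM, which tests fewer genes, left 1 lower assembly gene. COL12A1 changed sign to 0.11 (log2) without the second oeSTUB1 library, and ranged from -0.45 to 0.11 over the libraries left out, and COL11A2 changed to -0.10 without the third oeNC library (-0.10 to 0.13). Over all genes, 2088 were called, against 933 without the second oeNC library, 4112 without the second oeSTUB1 library, 1488 with the block and 3323 with the length correction. The same-numbered libraries deviated together with correlations of -0.05, -0.05 and 0.06 over all genes tested. These values cannot settle whether the numbers pair the samples, because the length deviation of the second oeSTUB1 library also enters them. The block moved COL4A1, COL7A1 and COL1A1 past the threshold (adjusted p = 0.0253, 0.0158 and 0.0205) and COL5A3 and COL6A2 below it (0.0555 and 0.0880). The cause of these shifts was not tested. Of 742 gene values compared over 47 genes, 676 stayed on their side of the threshold, 53 lost the call, 11 gained it and 2 reversed. The size of change that could be detected at a few fragments was not measured.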
